A study of Homo sapiens with 4 samples.

Results

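The genes described here are DHRS2 and 9 related members of the DHRS family of short-chain dehydrogenases (DHRS1, DHRS3, DHRS4, DHRS4L2, DHRS7, DHRS9, DHRS11, DHRS12 and DHRS13), 10 of the 36359 genes in the count table. They were taken by name, and the family was selected on the measured values of these libraries, because DHRS2 was much higher after PRR11 silencing. Its difference between the groups is therefore a description and is given without a test, as are those of the other members. RNA-seq was performed on ACHN, an established human renal cell carcinoma line grown in MEM with serum, after lipid-mediated transfection of a negative-control siRNA (siNC, 2 libraries) or of an siRNA against PRR11 (siPRR11, 2 libraries). All 4 libraries come from this 1 line and carry no other treatment, and siPRR11 is a transient knockdown. Which siPRR11 duplex each library received and the time of harvest are not given in the labels. The study sequenced these libraries to look for what lies downstream of PRR11, a proline-rich protein linked to cell cycle progression.

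Short-chain dehydrogenases are enzymes that bind NAD(H) or NADP(H) on a Rossmann fold and move hydride between the cofactor and a carbonyl or alcohol group. The DHRS members act on retinoids, steroids and small carbonyl compounds, so they set, among other things, how much retinal is reduced to retinol and how much stays available for retinoic acid synthesis. DHRS2, also called HEP27, is a carbonyl reductase of mitochondria and nucleus that is known to bind the ubiquitin ligase MDM2.

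In each library, PRR11 itself was measured first. Its level was 41.3 and 40.4 CPM (the read count of a gene normalised to library size, with TMM scaling) in siNC and 15.3 and 14.02 CPM in siPRR11, so 35.9% of the control level remained. Both siPRR11 libraries were below both siNC libraries. The libraries held between 59003839 and 92612749 counted reads, and siNC replicate 2 was the smallest. Mitochondrial genes took 4.96% to 5.58% of the reads. Of the 8 renal epithelial markers examined, 7 were expressed well enough to be tested, PAX8 between 253 and 375 CPM among them, while CDH6 stayed at or below 0.0636 CPM. Of these 7 markers, 2 were higher (KRT18 and CDH16) and 2 lower in siPRR11 at an adjusted p under 0.05 in edgeR's quasi-likelihood test. That is 57.1%, against 16.7% of all tested genes. EPCAM, 1 of those lower, had a log2 fold change of -0.65. The part of these shifts in the DHRS values was not tested. The blood and endothelial markers PTPRC, CD3E and PECAM1 were at or below 0.0935 CPM, VWF, ALB and MYH11 between 0.171 and 6.07 CPM, and CD68 between 45.2 and 60.1 CPM. Of the exonic bases of CD68, 81.7% are shared with RP11-186B7.4 on the same strand, so its reads are uncertain. None of the 4 tested markers of other cell types passed an adjusted p of 0.05 in edgeR's quasi-likelihood test, against 16.7% of all tested genes. Of these 4, 0 had an unadjusted p under 0.05 in that test. In bulk RNA, fewer cells expressing a gene and less RNA per cell cannot be told apart.

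The sequence before the DHRS2 start differs in composition from that of most other members. RefSeq promoters on GRCh38.p14 were found for 9 of the 10 members, 19 windows in all, and DHRS7 had none in the table used. The 250 bases before the DHRS2 start (chr14:23629865-23630114, plus strand) contain 0 CpG dinucleotides, a count found in 6.03% of 34961 promoter windows of 27195 genes, against a median of 11. Their GC content is 43.2%, and 19.4% of all windows are at or below it. They hold 1 TATAAA hexamer, which begins 29 bases before the start. A window of DHRS4L2 (chr14:23969624-23969873, plus strand), a gene in the neighbouring DHRS4 cluster, is shown for contrast. So is a window of DHRS3 (chr1:12618211-12618460, minus strand), a member on another chromosome. Each is written 5′ to 3′ along the gene, with every CG dinucleotide and every TATAAA hexamer on either strand in capitals.
DHRS2: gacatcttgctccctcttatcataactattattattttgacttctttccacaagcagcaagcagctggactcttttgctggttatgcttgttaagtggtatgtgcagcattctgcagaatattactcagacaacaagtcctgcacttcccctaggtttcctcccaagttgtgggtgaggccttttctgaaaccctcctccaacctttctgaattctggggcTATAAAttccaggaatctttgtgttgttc
DHRS4L2: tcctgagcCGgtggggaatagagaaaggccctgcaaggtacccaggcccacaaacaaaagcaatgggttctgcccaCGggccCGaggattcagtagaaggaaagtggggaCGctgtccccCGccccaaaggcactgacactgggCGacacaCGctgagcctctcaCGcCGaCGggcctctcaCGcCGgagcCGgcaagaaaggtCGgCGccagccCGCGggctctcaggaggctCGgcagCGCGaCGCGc
DHRS3: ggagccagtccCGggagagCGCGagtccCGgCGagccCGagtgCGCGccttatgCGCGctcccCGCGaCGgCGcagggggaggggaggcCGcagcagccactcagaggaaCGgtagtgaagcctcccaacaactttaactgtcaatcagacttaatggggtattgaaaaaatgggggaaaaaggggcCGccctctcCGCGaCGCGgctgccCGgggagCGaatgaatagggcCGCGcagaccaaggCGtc
The DHRS4L2 window contains 22 CpG dinucleotides and the DHRS3 window 26, and neither holds a TATAAA. The 2 other DHRS3 windows contain 3 and 10 CpG. DHRS9, which was close to undetected in ACHN cells, resembled DHRS2 in composition, since its 4 windows contain between 0 and 2 CpG, and 3 of them hold a TATAAA. Of these matches, 1 lies 32 bases before the start. The others lie 114, 137 and 149 bases before it, the last on the other strand. The remaining windows, those of DHRS1, DHRS4, DHRS4L2, DHRS11, DHRS12 and DHRS13, contain between 19 and 34 CpG. Searched on both strands, TATAAA occurs in 10.7% of all windows and in 4 of the 19 member windows, the GC box GGGCGG in 42.7% of all and in 10 of 19, and CCAAT in 32.0% of all and in 1 of 19. A match is a description of the letters and does not show that a factor binds there.

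DHRS2 lies on chromosome 14 (GRCh38, chr14:23630115-23645639, plus strand) and has 7556 exonic bases in the authors' annotation. It was counted by 76 reads in siNC replicate 1 and 24 in siNC replicate 2, and by 1791 and 1269 reads in the siPRR11 libraries. These counts correspond to 0.930 CPM (exact Poisson 95% interval 0.733 to 1.16) and 0.414 CPM (0.265 to 0.616) in siNC. In siPRR11 the levels were 19.0 CPM (18.1 to 19.9) and 14.8 CPM (14.03 to 15.7). The intervals cover counting error only. Both siPRR11 libraries were far above both siNC libraries, and the control libraries differed from each other more than counting error allows, with siNC replicate 1 2.25-fold above replicate 2. The siPRR11 libraries differed 1.28-fold.

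The mean DHRS2 level was 0.672 ± 0.365 CPM (SD, n = 2) in siNC and 16.9 ± 2.94 CPM (SD, n = 2) in siPRR11, a 25.2-fold difference of the means. Taking 1 siPRR11 and 1 siNC library at a time, the fold ran from 16.0 to 45.9. In the edgeR fit across all tested genes, the log2 fold change was 4.58 with a standard error of 0.242. Without siNC replicate 1, in which DHRS2 was highest among the controls, it was 5.35. DHRS2 had the largest log2 fold change of the 14193 genes whose average log2 CPM reached 1, and ranked 3 among all 21630 tested genes. This rank is part of why the gene was chosen, and DHRS2 reached that average level only through the siPRR11 libraries. No stretch of 100 bases in DHRS2 transcripts of GENCODE release 44 is found in another gene, and 0.115% of its stretches of 50 bases are.

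Among the members, DHRS2 moved by RPKM from near the bottom of the family to its middle. Levels of different genes were compared as RPKM (the read count normalised to exonic length and to library size). The place of DHRS2 depends on this length, 7556 bases against 3036 for DHRS3. By CPM its siPRR11 mean of 16.9 was above the 15.8 of DHRS3, although their libraries overlapped. In siNC the order was DHRS7 (12.4 ± 0.306, SD, n = 2 for each), DHRS4 (10.0 ± 0.457), DHRS3 (3.33 ± 0.224), DHRS4L2 (2.76 ± 0.0712), DHRS13 (1.63 ± 0.173), DHRS12 (1.62 ± 0.0921), DHRS1 (1.11 ± 0.0308), DHRS11 (1.09 ± 0.0954), DHRS2 (0.0875 ± 0.0476) and DHRS9 (0.0136 ± 0.0192). DHRS13 overlapped with DHRS12, and DHRS1 with DHRS11, while the other neighbours in this order did not overlap in 2 libraries.

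In siPRR11 the order was DHRS4 (10.7 ± 0.0810 RPKM, SD, n = 2 for each), DHRS7 (7.09 ± 0.0886), DHRS3 (5.28 ± 0.283), DHRS4L2 (3.15 ± 0.0226), DHRS2 (2.28 ± 0.401), DHRS13 (1.94 ± 0.00456), DHRS1 (1.28 ± 0.0391), DHRS12 (1.24 ± 0.0102), DHRS11 (1.20 ± 0.0567) and DHRS9 (0.00604 ± 0.000403). DHRS12 and DHRS11 were the only neighbours whose libraries overlapped. DHRS4 thus stood above DHRS7 in both siPRR11 libraries and below it in both siNC libraries.

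**Figure D1:**
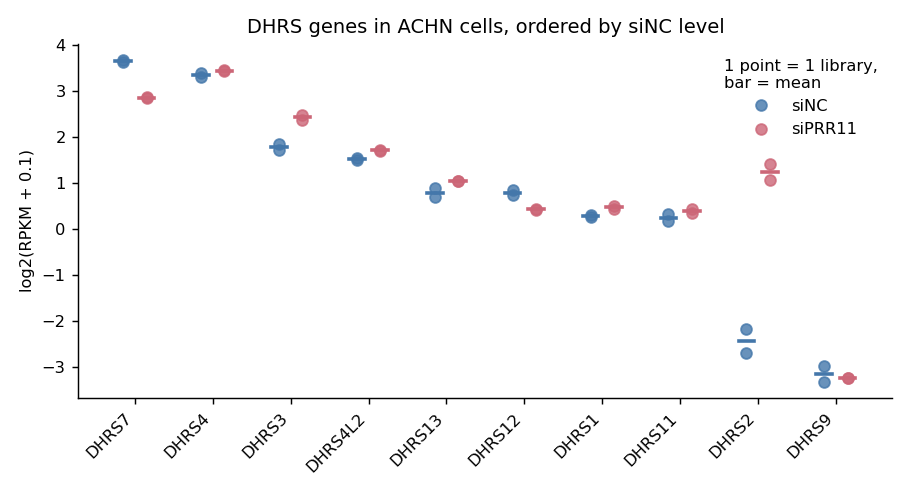
Level of the 10 DHRS genes in each library, as log2(RPKM + 0.1), with siNC in blue, siPRR11 in red, 1 point per library and the mean of 2 libraries as a bar. DHRS2 stands near DHRS9 at the bottom in siNC and beside DHRS13 in siPRR11, while DHRS7 is lower and DHRS3 higher in siPRR11.

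The summed level of all 10 members was 34.7 and 33.4 RPKM in siNC and 34.5 and 33.8 RPKM in siPRR11, and the groups overlapped. Without DHRS2 the sum was 34.6 and 33.3 RPKM in siNC and 31.9 and 31.8 RPKM in siPRR11, with both siPRR11 libraries lower. DHRS2 made up 0.349% and 0.161% of the summed RPKM in siNC and 7.42% and 5.89% in siPRR11. The share of DHRS7 was 36.3% and 36.4% in siNC and 20.4% and 21.2% in siPRR11. DHRS3 took 10.1% and 9.52% in siNC and 15.9% and 15.01% in siPRR11. DHRS4 kept a share between 29.1% and 31.8% in the 4 libraries, so the largest member was DHRS7 in siNC and DHRS4 in siPRR11.

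Of the 10 members, 9 had enough reads to enter the fit across 21630 genes. The libraries of the groups did not overlap for 7 of these 9, all but DHRS4 and DHRS11, and did not overlap for 58.4% of all genes in the fit. Since the family was chosen with this contrast in view, nothing is read from the members' count. The median log2 fold change was 0.14 over the 9 tested members, 0.12 without DHRS2, and 0.00 over all tested genes.

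Members that handle retinal or retinol are described first. DHRS3 (chr1:12567910-12617731, minus strand), a retinal reductase that limits retinoic acid synthesis, was at 10.8 and 9.81 CPM in siNC and 16.3 and 15.2 CPM in siPRR11. Both siPRR11 libraries were above both controls, and the log2 fold change was 0.61 (SE 0.105). It stayed between 0.53 and 0.68 in every alternative fit.

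DHRS4 (chr14:23953586-23969279, plus strand), a peroxisomal NADPH-dependent reductase of retinal and other carbonyl compounds, was at 24.3 and 22.8 CPM in siNC and 24.1 and 24.4 CPM in siPRR11. The groups overlapped, and the log2 fold change was 0.04 (SE 0.0892). DHRS4L2 (chr14:23969874-24006408, plus strand), a duplicated copy of DHRS4, was at 7.18 and 6.93 CPM in siNC and 7.75 and 7.86 CPM in siPRR11. Its libraries did not overlap between the groups, and the log2 fold change was 0.14 (SE 0.116). The values of these copies are uncertain, because 19.8% of the stretches of 100 bases in DHRS4 transcripts and 29.7% of those in DHRS4L2 transcripts also occur in another gene, and because 14.4% of the exonic bases of DHRS4 lie opposite DHRS4-AS1.

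DHRS9 (chr2:169064789-169096167, plus strand), which oxidises retinol and hydroxysteroids, was counted by 0 and 6 reads in siNC and by 2 reads in each siPRR11 library. No read in siNC replicate 1 allows a level of up to 0.0367 CPM, that of 3 reads. DHRS9 was not tested, and no difference was detectable at this depth. DHRS9 and DHRS2 were thus the lowest members in control cells, and DHRS9 stayed the lowest in siPRR11.

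Members linked to steroids or other carbonyl substrates include the one with the largest decrease. DHRS7 (chr14:60144120-60169856, minus strand), a membrane-anchored reductase of the endoplasmic reticulum with steroid and retinoid substrates, was at 41.6 and 40.2 CPM in siNC and 22.4 and 22.9 CPM in siPRR11. The replicates lay close together, both siPRR11 libraries were below both controls, and the mean was 55.5% of that in siNC. The log2 fold change was -0.85 (SE 0.0842). Of the exonic bases of DHRS7, 27.5% lie opposite PCNX4 on the other strand. PCNX4 was at 59.5 and 64.6 CPM in siNC and 59.6 and 61.4 CPM in siPRR11, and its groups overlapped.

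DHRS11 (chr17:36591798-36600806, plus strand), a reductase of ketosteroids, was at 6.40 and 5.66 CPM in siNC and 6.24 and 6.69 CPM in siPRR11. The groups overlapped, and the log2 fold change was 0.10 (SE 0.128). DHRS1 (chr14:24290598-24299833, minus strand), a carbonyl and steroid reductase of the endoplasmic reticulum, was at 5.75 and 5.54 CPM in siNC and 6.45 and 6.20 CPM in siPRR11. Both siPRR11 libraries were higher, with a log2 fold change of 0.16 (SE 0.124).

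DHRS12 and DHRS13 are members whose substrates are less well known. DHRS12 (chr13:51767993-51804157, minus strand) was at 5.58 and 6.05 CPM in siNC and 4.33 and 4.29 CPM in siPRR11. Both siPRR11 libraries were below both controls, with a log2 fold change of -0.43 (SE 0.133). In the alternative fits it ran from -0.49 to -0.23. Of the stretches of 100 bases in DHRS12 transcripts, 14.2% also occur in another annotated gene. DHRS13 (chr17:28897781-28903071, minus strand) was at 4.50 and 5.24 CPM in siNC and 5.61 and 5.65 CPM in siPRR11. The siPRR11 libraries were higher by 0.21 (SE 0.136) on the log2 scale, and 41.5% of its exonic bases lie opposite RP11-20B24.4, so the reads of the pair cannot be told apart unless strand was used in counting.

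**Figure D2:**
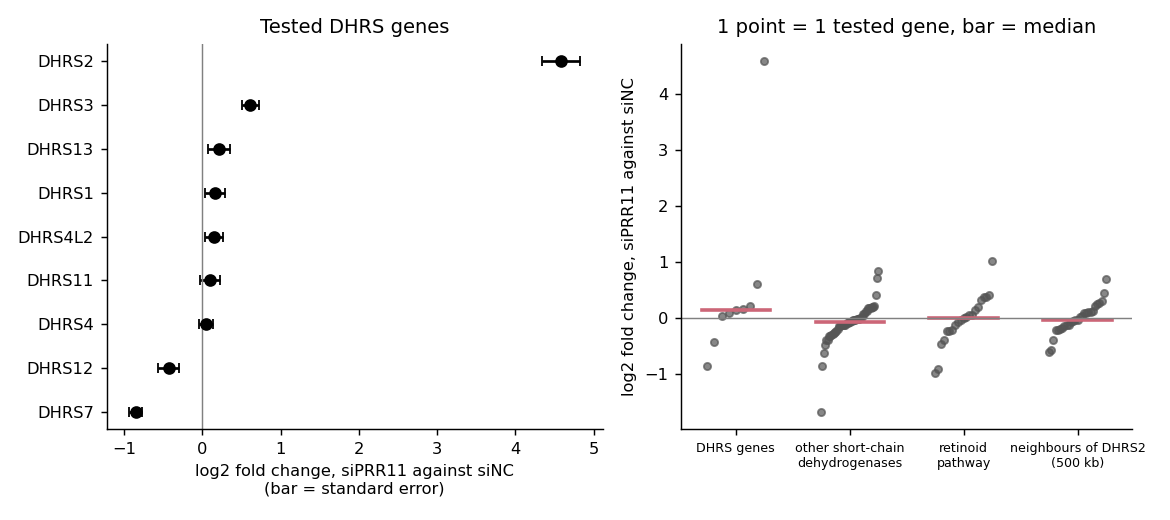
Left, log2 fold change of the 9 tested DHRS genes, siPRR11 against siNC, with its standard error; right, the log2 fold change of every tested gene in 4 lists, with the median of each list as a bar. DHRS2 at 4.58 stands apart from all other points, and the 4 medians lie between -0.06 and 0.14.

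The other genes that carry the DHRS name gave no call. Of 5 in the table, 4 were tested, 0 passed an adjusted p of 0.05 by edgeR's quasi-likelihood test (Benjamini-Hochberg adjusted over 21630 genes), against 16.7% of all genes, and 1, DHRS7B, had an unadjusted p under 0.05. DHRS7B, a peroxisomal reductase of ether lipid synthesis, was at 6.20 and 4.45 CPM in siNC and 8.44 and 6.62 CPM in siPRR11, with a log2 fold change of 0.49 (SE 0.171) and an adjusted p of 0.0712 in edgeR's quasi-likelihood test. Its siPRR11 libraries were both higher, but the spread within each group was large. DESeq2 and limma also called 0 of these genes, and edgeR's exact test called DHRS7B. DHRSX had a log2 fold change of 0.25 (edgeR quasi-likelihood adjusted p = 0.281), DHRS4-AS1, the antisense transcript at DHRS4, -0.17 (adjusted p = 0.304), and DHRS4L1, with 6 to 17 reads per library, 0.45 (adjusted p = 0.708). DHRSX-IT1 had too few reads to be tested.

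The genes around DHRS2 were counted next. DHRS2 shares chromosome 14 with DHRS4, DHRS4L2, DHRS1 and DHRS7, and DHRS4 begins 308 kb beyond its end. Besides DHRS4 and DHRS4L2, the table holds 36 genes within 500 kb, and 27 were tested. Of these, 2 passed the threshold (7.41%, against 16.7% of all tested genes), BCL2L2 and PSME2, and their median log2 fold change was -0.03. BCL2L2, a BCL2 family survival gene at -318 kb (negative distances lie to the left of DHRS2), was at 43.5 and 51.8 CPM in siNC and 34.7 and 38.1 CPM in siPRR11, with a log2 fold change of -0.39 (edgeR quasi-likelihood adjusted p = 0.0195). PSME2, a proteasome activator subunit at 498 kb, was at 107 and 94.7 CPM in siNC and 124 and 119 CPM in siPRR11, with a log2 fold change of 0.27 (edgeR quasi-likelihood adjusted p = 0.0393). BCL2L2 overlaps the readthrough gene BCL2L2-PABPN1 on the same strand (log2 fold change -0.20), so its reads are uncertain. Neither gene was called by limma or in the fits without siPRR11 replicate 1 or without siNC replicate 2. The call of PSME2 was also lost without siPRR11 replicate 2.

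Leaving out DHRS4 and DHRS4L2, given above, the 4 nearest tested genes on each side of DHRS2 did not pass. To the left these were RP11-66N24.3 (log2 fold change 0.11), AP1G2, an adaptor subunit of endosomal coats (0.12), RP11-66N24.4 (0.02) and THTPA, a thiamine triphosphatase (-0.14). To the right they were DHRS4-AS1 (-0.17), DHRS4L1 (0.45), CARMIL3 (-0.60) and NRL (-0.07). Adjusted p-values of these 8 genes in edgeR's quasi-likelihood test were between 0.304 and 0.948. The nearest tested gene on the left ended 62.0 kb away and the nearest on the right began 293 kb away. Nearer on the left, JPH4 (-51.3 kb) and RP11-66N24.6 (-10.1 kb) had too few reads to be tested. JPH4 was counted by 2 and 0 reads in siNC and by 16 and 10 in siPRR11. RP11-66N24.6 was counted by 2 and 3 reads in siNC and by 2 in each siPRR11 library. The genes on the left may not be separate readings. Of the exonic bases of RP11-66N24.3, 83.3% lie opposite AP1G2 and JPH4, and THTPA shares 54.5% with RP11-66N24.4.

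**Figure D3:**
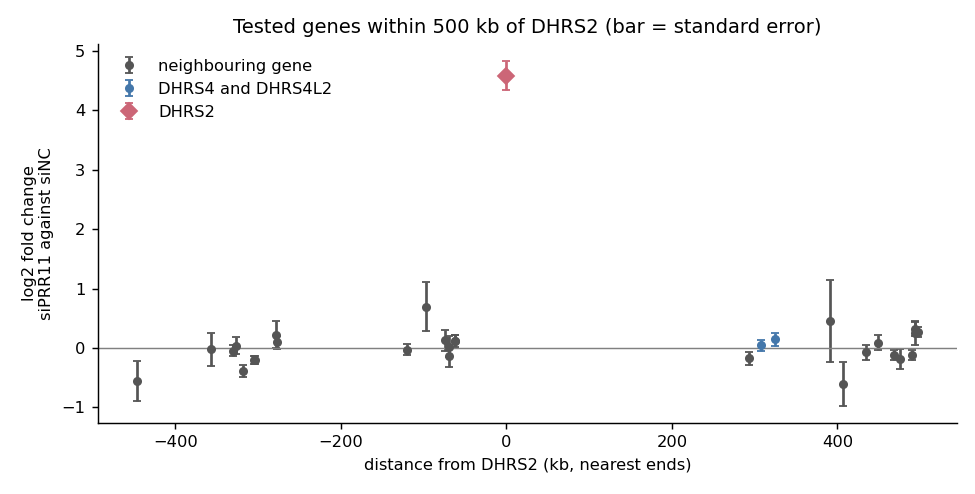
Log2 fold change with its standard error of the tested genes within 500 kb of DHRS2, plotted against the distance between the nearest ends, with DHRS4 and DHRS4L2 in blue and DHRS2 in red. DHRS2 stands at 4.58, while the 27 neighbours, DHRS4 and DHRS4L2 lie between -0.60 and 0.70.

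Other short-chain dehydrogenases were counted from a list of 58 genes, of which 54 were in the table and 46 were tested. Of these, 7 passed the threshold, 1 higher and 6 lower in siPRR11, which is 15.2% against 16.7% of all genes (7.61% higher and 9.14% lower), and their median log2 fold change was -0.06. The one that rose was HSDL2, a peroxisomal member of the family, at 35.5 and 39.5 CPM in siNC and 66.6 and 68.8 CPM in siPRR11 (log2 fold change 0.85, SE 0.0840, edgeR quasi-likelihood adjusted p = 7.6e-05). Its groups were far apart relative to the spread of the replicates. The one that fell most was HSD11B2, which inactivates cortisol in the distal nephron, at 1.28 and 1.62 CPM in siNC and 0.530 and 0.374 CPM in siPRR11 (log2 fold change -1.67, SE 0.291, edgeR quasi-likelihood adjusted p = 0.00252).

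Others that fell were enzymes of cofactor, nucleotide sugar and bile acid metabolism. SPR, which completes tetrahydrobiopterin synthesis, was at 55.0 and 54.2 CPM in siNC and 35.0 and 36.0 CPM in siPRR11 (log2 fold change -0.62, edgeR quasi-likelihood adjusted p = 0.000376). GMDS, of GDP-fucose synthesis, UXS1, which makes UDP-xylose, and HSD3B7, of bile acid synthesis, had log2 fold changes between -0.32 and -0.28. For each of them both siPRR11 libraries were below both controls. The smaller changes of GMDS, UXS1 and HSD3B7 were not called by limma or in the fit without siPRR11 replicate 1. The calls of GMDS and HSD3B7 were also lost without siPRR11 replicate 2, and that of HSD3B7 without siNC replicate 1. Of the exonic bases of HSD3B7, 64.6% lie opposite RP11-1072A3.3 on the other strand.

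Retinoid pathway genes were counted because several DHRS enzymes act on retinal. The list holds 30 genes and shares 5 retinol dehydrogenases with the list above, and 28 were in the table and 21 were tested. Of these, 3 rose and 2 fell (23.8% against 16.7% of all genes), and the median log2 fold change was 0.01. The retinal dehydrogenases ALDH1A1 and ALDH1A3, which make retinoic acid, moved in opposite directions. ALDH1A1 was at 1529 and 1365 CPM in siNC and 3022 and 2840 CPM in siPRR11 (log2 fold change 1.02, SE 0.0793, edgeR quasi-likelihood adjusted p = 1.27e-05). ALDH1A3 was at 54.0 CPM in both siNC libraries and at 26.7 and 28.1 CPM in siPRR11 (log2 fold change -0.98, SE 0.0817, edgeR quasi-likelihood adjusted p = 2.33e-05).

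For both enzymes the difference was many times the spread between replicates. Of the exonic bases of ALDH1A3, 27.5% lie opposite RP11-66B24.4 on the other strand. BCO1, which cleaves beta-carotene to retinal, was at 46.8 and 50.7 CPM in siNC and 63.3 and 67.5 CPM in siPRR11 (log2 fold change 0.43, edgeR quasi-likelihood adjusted p = 0.00434). RARG, a retinoic acid receptor, was at 16.7 and 14.9 CPM in siNC and 19.9 and 21.3 CPM in siPRR11 (log2 fold change 0.38, edgeR quasi-likelihood adjusted p = 0.0220). LRAT, which esterifies retinol, was low at 1.08 and 1.60 CPM in siNC and 0.700 and 0.725 CPM in siPRR11 (log2 fold change -0.90, edgeR quasi-likelihood adjusted p = 0.0451). The calls of RARG and LRAT were lost with limma and without any of 3 of the 4 libraries (siNC replicate 2, siPRR11 replicate 1 and siPRR11 replicate 2), and that of LRAT also with DESeq2.

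**Figure D4:**
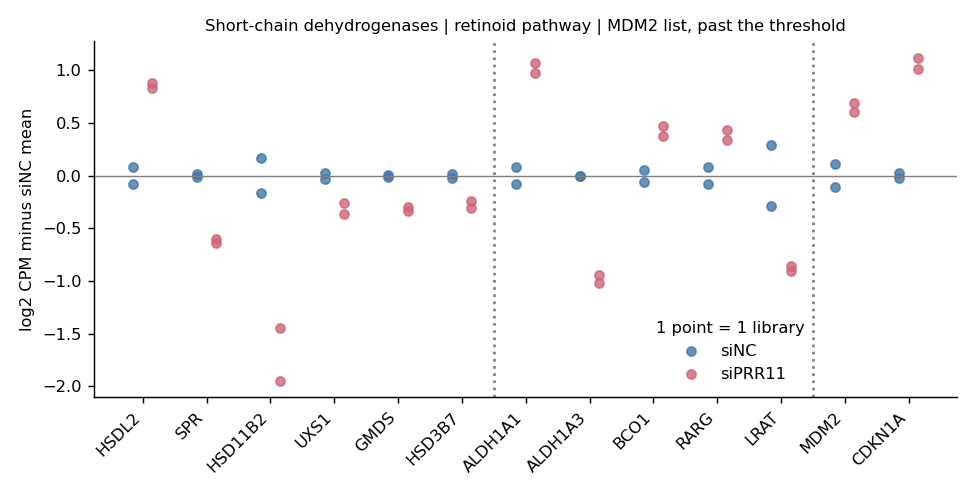
Level of the named genes past the threshold in the short-chain dehydrogenase, retinoid and MDM2 lists, as log2 CPM minus the siNC mean, with 1 point per library, siNC in blue and siPRR11 in red. For every gene shown the siPRR11 points lie on one side of the siNC points, and ALDH1A1 and ALDH1A3 lie about 1 log2 unit above and below.

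Genes tied to the MDM2 role of DHRS2 were counted from a short list. Of 6 tested, CDKN1A and MDM2 rose past the threshold and the others did not pass. That is 33.3%, against 16.7% of all tested genes called and 7.61% called higher, and nothing is read from so short a list. MDM2 was at 111 and 129 CPM in siNC and 193 and 181 CPM in siPRR11 (log2 fold change 0.64, SE 0.0860, edgeR quasi-likelihood adjusted p = 0.000508). CDKN1A, which encodes the CDK inhibitor p21, was at 45.5 and 44.2 CPM in siNC and 97.5 and 90.5 CPM in siPRR11 (log2 fold change 1.07, SE 0.0785, edgeR quasi-likelihood adjusted p = 9.37e-06). MDM4, CDKN2A and MYB had log2 fold changes of 0.04, -0.15 and -0.55 and did not pass. A rise of DHRS2 RNA with that of MDM2 and CDKN1A in the same libraries does not show that one depends on another, which was not tested.

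The genes whose profile lay nearest to that of DHRS2 over the 4 libraries were SEMA3G, TNNC1, SAA1, CLSTN2 and KRT4. The measure was the Euclidean distance between log2 CPM values, each less the gene's siNC mean, among 14192 other genes whose average log2 CPM reached 1. SEMA3G, a secreted semaphorin, was at a distance of 2.43 and was measured at 5.31 and 6.45 CPM in siNC and 47.6 and 58.3 CPM in siPRR11. TNNC1, a troponin C, was at a distance of 2.94 and was measured at 28.6 and 21.3 CPM in siNC and 153 and 161 CPM in siPRR11. SAA1, an acute phase protein, was at 3.29, CLSTN2 at 3.66 and KRT4 at 4.10. SAA1 shared with DHRS2 the higher value of replicate 1 in both groups, at 1.62 and 0.655 CPM in siNC and 8.15 and 3.79 CPM in siPRR11. The nearest profiles lay below that of DHRS2 in both siPRR11 libraries. DHRS2 had the largest log2 fold change at this average level, but it was chosen for its rise and ranked 3 among all 21630 tested genes. It reached the level through the siPRR11 libraries, since its siNC mean was 0.672 CPM.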

How the data were processed

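RNA from ACHN cells was sequenced in 4 libraries, 2 siNC and 2 siPRR11. The groups and replicate numbers were taken from the labels, and nothing in them says that replicates were separate cultures, so p-values measure the spread between these samples, which may be technical. Per the paper's methods, stranded libraries were read on a DNBSEQ-T7, aligned to GRCh38 with STAR and counted with featureCounts, and the submitters' processing notes name Trimmomatic 0.36 and Subread 1.5.1. The authors deposited raw counts per gene without normalization, and RPKM values that equal the count divided by exonic length and column total to within 3.08e-06%. Annotation release and strand setting of the counting are not given in the sources used here. Every column of sample values was used.

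The counts were tested with edgeR 4.0.16 in R 4.3.3 (filterByExpr, TMM, quasi-likelihood test, condition as the only term, Benjamini-Hochberg adjustment over 21630 genes, threshold 0.05). Genes left out for low counts numbered 14729. Standard errors were taken as the log2 fold change over the root of the F statistic. The siNC libraries had 83068637 and 59003839 counted reads, those of siPRR11 92612749 and 84279389, and the common biological coefficient of variation was 0.0856. The alternatives tried were no filter or a minimum of 10 counts per library, edgeR's exact test, RLE scaling, a replicate term, DESeq2 1.42.0, limma 3.58.1 with a variance trend on log2(RPKM + 1) and log2(RPKM + 0.1), and each library left out. Promoters came from RefSeq (GRCh38.p14), and shared stretches of sequence were counted over GENCODE release 44 transcripts, whose gene positions overlapped those of the deposited table for 99.81% of shared symbols.

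The members and the gene lists were chosen with earlier results of these data known. Named are PRR11, every member, the other tested DHRS-named genes, neighbours within 500 kb past the threshold and the nearest 4 on each side, up to 8 genes past the threshold per other list with the largest change, and the 5 genes nearest to the DHRS2 profile. Genes overlapping a named member, the untested neighbours nearest to DHRS2 and cell type markers are given beside these. A few of the genes so named are not reported here.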

Additional observations from a re-analysis of the deposited data

How the results depend on the processing

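The direction of every tested member except DHRS4 was kept in all 12 alternatives, including members with small changes such as DHRS1 and DHRS11. The log2 fold change of DHRS2 was 1.59 with limma on log2(RPKM + 1) and 3.68 on log2(RPKM + 0.1), since the pseudocount compresses a low control level, and without 1 library it ran from 4.18 to 5.35, the highest without siNC replicate 1. DHRS4 turned to -0.0045 without siNC replicate 2. Over all genes, 3622 calls became 1775 and 1878 with limma on the same pseudocounts, 61.5% and 61.3% of them higher in siPRR11 against 45.4%, and 2172 to 4590 without 1 library, the lowest being 2172 without siPRR11 replicate 1 and 2393 without siPRR11 replicate 2. The limma fits called 4 and 4 other short-chain dehydrogenases, 3 and 3 retinoid genes and 0 and 0 neighbours. Without 1 library, the short-chain dehydrogenases called were 4 to 10, the retinoid genes 3 to 5, the neighbours 0 to 5 and the other DHRS-named genes 0 to 1. The neighbours were 5 without siNC replicate 1, 1 without either siNC replicate 2 or siPRR11 replicate 2, and 0 without siPRR11 replicate 1. DHRS7B made the other DHRS-named genes 1 with edgeR's exact test, with no filter and without siNC replicate 1 or siPRR11 replicate 2. Other causes of these moves were not tested.

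With the replicate number as a block, calls rose to 6988 over all genes, 16 other short-chain dehydrogenases, 8 retinoid genes, 5 neighbours and 1 other DHRS-named gene. Same-numbered libraries correlated by 0.479 in their deviations over 14138 genes. There are only 2 such pairs, and no label ties them beyond the number. The source of this correlation was not tested.

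Low read counts limit DHRS9 and DHRS4L1, and 2 libraries per group limit every value.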
